A study of Capra hircus with 14 samples.

Results

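Gene expression at day 3 of induction was compared with day 2 in goat (Capra hircus) fibroblasts, called GEF, that were being converted toward mammary epithelial cells, called CiMEC. The comparison used 4 RNA sequencing libraries, the 2 of day 3 and the 2 of day 2, chosen by the day in their titles out of 14 libraries in all. The other 10 libraries, from days 0, 1, 4, 6 and 8, entered the fit to estimate the spread between libraries of the same day. Day 0 libraries came from fibroblasts in DMEM with fetal bovine serum, and those of the later days, both compared days included, from wild-type cells kept on Matrigel in R induction medium. The sources used here do not say what that medium contained.

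By the labels, the induction medium was renewed at 2-day intervals, but they do not say whether the day 2 cells were collected before or after a renewal. The day of induction and the time since the last renewal therefore cannot be told apart in this comparison. Both groups had the same genotype, coating and medium, so they differed by the day alone as far as the labels say. The labels do not say whether libraries of a day came from separate cultures, and the p-values may therefore rest on technical spread alone.

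Fibroblasts are connective tissue cells that secrete collagens and other matrix proteins and carry receptors for platelet-derived growth factor. Mammary epithelium has an inner luminal layer, marked by simple keratins such as keratins 8, 18 and 19, and an outer basal layer of myoepithelial cells. Myoepithelial cells carry basal keratins together with the actin, myosin and calponin family proteins of smooth muscle, with which they squeeze milk from the gland.

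Of 15712 genes tested, 7116 (45.3%) were called at an adjusted p under 0.05 by edgeR's quasi-likelihood F test with Benjamini-Hochberg adjustment over all genes tested. Higher at day 3 were 3329 genes (21.2%) and lower were 3787 (24.1%). Most of these changes were small, with a median absolute log2 fold change of 0.44 among called genes, with 1252 genes (7.97%) higher and 1079 (6.87%) lower by more than 1.5-fold. Past 2-fold, 472 genes (3%) rose and 401 (2.55%) fell. Past 4-fold, 104 genes rose and 59 fell. A stricter filter, of 5 CPM in at least 2 libraries, left 222 genes higher and 217 lower past 2-fold. The median over all genes was -0.01, and the values of the 4 libraries did not overlap between the days in 72.9% of all genes tested. They did not overlap in 7103 of the 7116 called genes either, so a lack of overlap adds little to a call. Every count of called genes below is to be read against these shares. Levels are given as CPM, a rate of counts per scaled library size, and changes as log2 fold changes of day 3 over day 2 with a standard error (SE) from the fit of all 14 libraries.

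**Figure D1:**
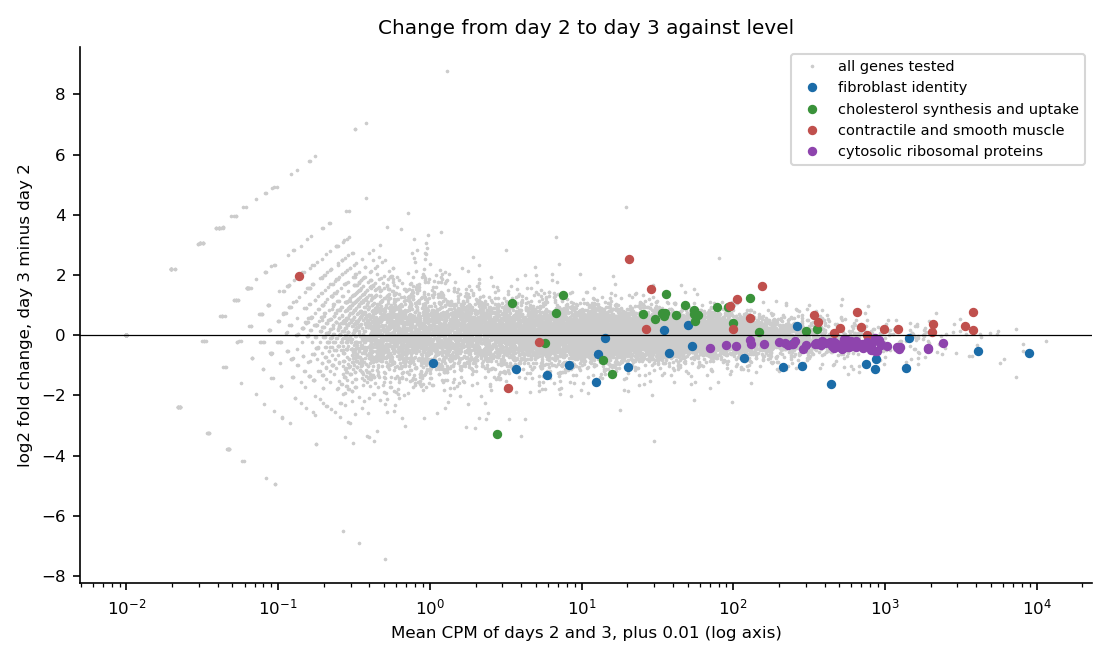
Log2 fold change of day 3 over day 2 for each gene tested, against its mean CPM over the 4 libraries of both days (log axis). Grey points are all genes, and coloured points are members of 4 gene lists. Fibroblast genes lie mostly below 0 and ribosomal protein genes form a narrow band below 0, while most cholesterol and contractile genes lie above 0.

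The 4 libraries held 20515126 to 24746010 estimated counts. Rank correlations over genes were 0.997 within day 2 and 0.997 within day 3, against 0.983 to 0.984 between the days. Some features of the libraries as a whole moved with the comparison. Ribosomal protein genes took 5.06% and 4.92% of the counts at day 2 and 4.29% and 4.21% at day 3. A set of 31 genes picked by similarity to mitochondrially encoded proteins took 2.98% and 2.89% at day 2 and 3.29% and 3.27% at day 3. Members of that set may not all be mitochondrially encoded. Long genes were called higher more often than short ones, as described at the end. The part of these features in the results was not tested, apart from a fit corrected for gene length.

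The labels name the cells of both days induced mammary epithelial cells. Markers of fibroblasts and of both epithelial layers were present at both days, and those of secretion were not. The summed level of 8 fibroblast markers, among them COL1A1, COL3A1 and VIM, was 37470 and 39610 CPM at day 2 and 20180 and 21230 CPM at day 3, and all 8 fell. For 5 basal markers, led by KRT5 and KRT14, the sums were 5337 and 5418 CPM at day 2 and 7321 and 7643 CPM at day 3, with 3 called higher and 1 lower. Sums of 7 luminal markers were 1580 and 1563 CPM at day 2 and 2151 and 2125 CPM at day 3, with 6 called higher and none lower. All 6 milk secretion genes examined, CSN2, CSN3, CSN1S1, CSN1S2, LALBA and PAEP, had 0 counts in the 4 libraries, each with a floor of 3 counts or 0.117 to 0.15 CPM. In bulk RNA, fewer cells of a type and less RNA per cell cannot be told apart.

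Markers of other cell types the cultures could hold were summed as well. Those of Schwann and neural cells had 85.5 and 89.61 CPM at day 2 and 75.38 and 70.98 CPM at day 3, and those of cartilage 52.55 and 51.9 CPM at day 2 and 70.45 and 72.35 CPM at day 3. Leukocyte markers summed to 31.05 and 30.02 CPM at day 2 and 17.99 and 19.53 CPM at day 3, with PTPRC and AIF1 at 0. Endothelial markers summed to 2.336 to 5.645 CPM, with CDH5 at 0. Melanocyte markers summed to 11.51 to 16.79 CPM, adipocyte markers to 1.673 to 3.597 CPM and skeletal muscle markers to 1.299 to 3.695 CPM over the 4 libraries. MYOD1 and MYOG of skeletal muscle and MLANA and TYR of melanocytes were at 0 in all of them. Markers of stratified epidermis summed to 12.79 and 12.14 CPM at day 2 and 7.979 and 9.491 CPM at day 3.

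Genes under LOC or assembled-transcript identifiers were left out of the rankings below. The gene with the greatest rise among the rest at 5 CPM or more was TXNIP, an arrestin-like protein that binds thioredoxin and limits glucose uptake. The TXNIP gene is switched on by glucose. TXNIP stood at 2.28 and 1.60 CPM at day 2 and at 37.9 and 37.0 CPM at day 3. Both day 3 libraries lay far above both of day 2, a 19.2-fold rise (log2 fold change 4.26 ± 0.155, SE, n = 2 per day, adjusted p = 1.25e-15). Its course was not a steady one. The mean was 24.1 CPM at day 1, fell to 1.94 CPM at day 2, and was 37.5 CPM at day 3, 44.1 CPM at day 4 and 99.4 CPM at day 8. ARRDC4, its closest relative and also a glucose-responsive gene, had 16.3 and 14.5 CPM at day 2 and 32.1 and 33.6 CPM at day 3. It rose by 1.09 ± 0.0879 (adjusted p = 7.04e-10), with no overlap between the days. The glucose sensing list as a whole did not move one way, since 4 of its 11 tested members were higher, 6 lower and 1 not called (median -0.20).

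Another large rise was in CKB, the brain form of creatine kinase, which had 21.8 and 25.03 CPM at day 2 and 135 and 142 CPM at day 3. All day 3 values exceeded all day 2 values by more than 5-fold, and the log2 fold change was 2.57 ± 0.0668 (adjusted p = 3.43e-18). DTNA, the dystrophin partner alpha-dystrobrevin, rose from 1.43 and 1.10 CPM to 11.9 and 12.4 CPM (3.26 ± 0.198). MCAM, an adhesion molecule of smooth muscle and endothelium, rose by 2.25 ± 0.159, PHACTR2, a regulator of phosphatase and actin, by 2.04 ± 0.143, and AQP1, a water channel, by 1.68 ± 0.0657. ACAN, the proteoglycan of cartilage, rose by 1.72 ± 0.119 to a mean of 25.4 CPM, SLC1A3, a glutamate transporter, by 1.86 ± 0.2, and PLXNC1, a semaphorin receptor, by 2.01 ± 0.222. CDRT1, CD7, THSD4 and TLCD1 were also among the 15 greatest rises in this ranking, at 1.57 to 2.82.

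**Figure D2:**
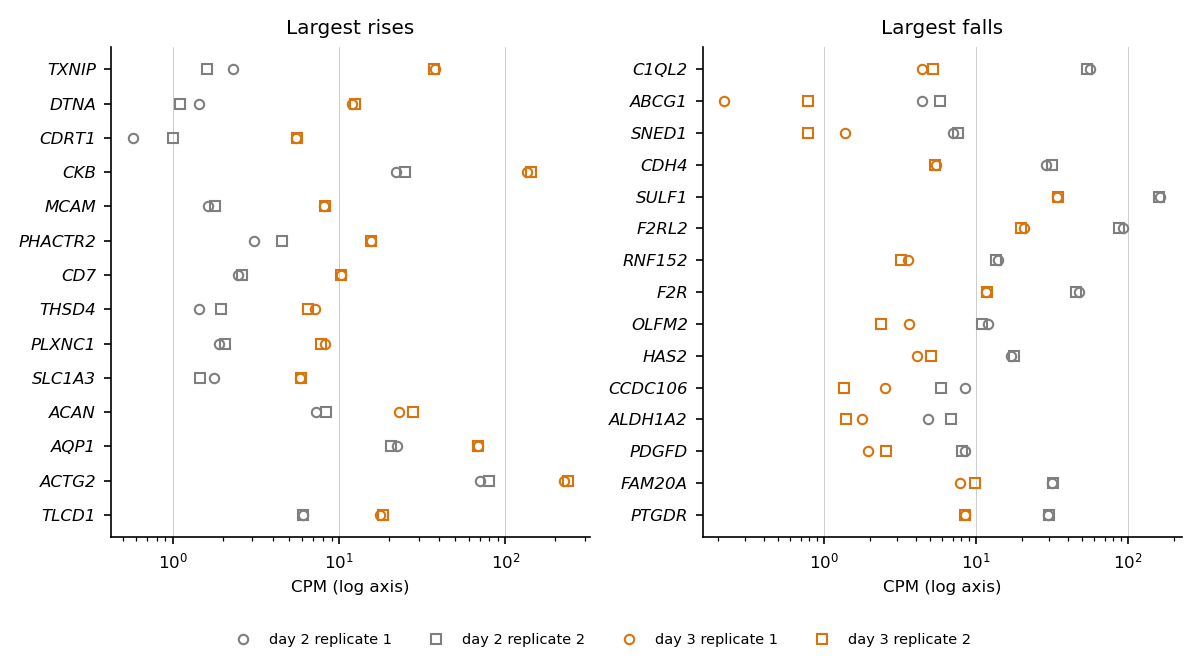
CPM (log axis) in each of the 4 libraries for genes of the largest rises (left, 14 of 15) and falls (right, all 15). Ranked were called genes at 5 CPM or more, without LOC or assembled-transcript identifiers, whose values did not overlap between the days. Grey marks are day 2 and orange marks day 3, with circles for replicate 1 and squares for replicate 2. In each gene the marks of the days do not overlap, as the ranking required.

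The deepest fall at 5 CPM or more, in the same ranking, was in C1QL2, a secreted protein of the C1q family. It went from 55.8 and 53.9 CPM at day 2 to 4.41 and 5.17 CPM at day 3, an 11.4-fold fall (-3.51 ± 0.101, adjusted p = 1.57e-17). SULF1, an enzyme that trims sulfate from heparan sulfate at the cell surface, went from 163 and 159 CPM to 33.99 and 34.3 CPM (-2.23 ± 0.0698). CDH4, the R-cadherin, went from 28.7 and 31.7 CPM to 5.42 and 5.37 CPM (-2.48 ± 0.12). In all of these genes both day 3 values lay below both day 2 values, as the naming rule required. F2R and F2RL2, which encode protease-activated receptors of the thrombin family, fell by 1.98 ± 0.111 and 2.15 ± 0.0837. These genes lie on the same chromosome with 1 protein-coding gene between them in the RefSeq annotation of assembly ARS1.2. HAS2, which makes hyaluronan, fell by 1.92 ± 0.124, PDGFD, a platelet-derived growth factor ligand, by 1.87 ± 0.18, ALDH1A2, which makes retinoic acid, by 1.87 ± 0.289, and PTGDR, a prostaglandin D receptor, by 1.83 ± 0.0941. SNED1, RNF152, OLFM2, CCDC106 and FAM20A fell by between 1.84 and 2.79.

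Most genes of fibroblast identity fell. Of 25 tested, 19 were lower, 2 higher and 4 not called, against 24.1% lower and 21.2% higher over all genes, and the median log2 fold change was -0.79 against -0.01. PDGFRA, the platelet-derived growth factor receptor alpha that marks fibroblasts, had 673 and 666 CPM at day 2 and 213 and 219 CPM at day 3. The values of the days lay far apart, and the fall was 1.63 ± 0.0614 (adjusted p = 1.71e-15). DPT (dermatopontin) fell by 1.54 ± 0.131, SFRP2, a secreted WNT modulator, by 1.31 ± 0.156, and VIM, the intermediate filament of mesenchymal cells, by 0.59 ± 0.0396, from means of 10612 ± 280 to 7070 ± 128 CPM (SD, n = 2). DDR2, a collagen receptor, went the other way and rose by 0.31 ± 0.0724. Leaving out day 2 replicate 1 gave 1 fibroblast gene higher.

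Transcription factors and cadherins tied to the mesenchymal state were also mostly lower. Of 11 tested, 8 were lower, none higher and 3 not called (median -0.47). TWIST1 had 27.3 and 27.3 CPM at day 2 and 13.9 and 12.1 CPM at day 3, and fell by 1.07 ± 0.0954. TWIST2 fell by 0.64 ± 0.129 and SNAI2 by 0.74 ± 0.0673. ZEB1, another repressor of epithelial genes, did not pass the test, with 32.4 and 28.6 CPM at day 2 and 28.9 and 30.6 CPM at day 3, values that overlap. TWIST1 and TWIST2 belong to the fibroblast list as well.

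Matrix genes were mostly lower. Among 29 collagens and collagen-processing enzymes, 16 were lower, 8 higher and 5 not called (median -0.23), and among 28 matrix glycoproteins and proteoglycans, 20 were lower, 3 higher and 5 not called (median -0.36). The counts of higher genes were the less stable ones. Leaving out 1 library gave 4 (day 2 replicate 1 or day 3 replicate 2) or 5 (day 2 replicate 2) collagen genes higher, and leaving out day 2 replicate 1 gave 1 matrix glycoprotein gene higher. COL3A1, the type III collagen of loose connective tissue, had 10249 and 10865 CPM at day 2 and 3918 and 4125 CPM at day 3. This was the largest loss of CPM of any gene under the naming rule, at -1.39 ± 0.0444 on the log2 scale (adjusted p = 8.59e-17). COL1A2 and COL1A1, the chains of type I collagen, fell by 0.94 ± 0.0416 and 0.79 ± 0.0518. FN1 (fibronectin) fell by 0.95 ± 0.0608, BGN (biglycan) by 1.04 ± 0.0519 and P4HA3, a collagen prolyl hydroxylase, by 1.32 ± 0.0833. Collagen genes that rose include COL7A1, the anchoring fibril collagen of epithelial basement membranes, from 11.8 and 12.1 CPM to 18.2 and 18.3 CPM (0.61 ± 0.0919). THBS2 (thrombospondin 2) rose by 0.53 ± 0.0587. Of 21 metalloproteinases and inhibitors, 9 were lower, 5 higher and 7 not called, and MMP2, a gelatinase abundant in fibroblasts, fell by 0.69 ± 0.0476 and MMP19 by 1.33 ± 0.0724.

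COL3A1 and FN1 were higher again at day 4 than at day 3. COL3A1 means were 10557 CPM at day 2, 4021 CPM at day 3 and 6145 CPM at day 4, and those of FN1 were 2178 CPM, 1124 CPM and 2094 CPM. Day 3 was also compared with the mean of days 2 and 4 in the same fit, a comparison that shares its day 2 and day 3 libraries with the first. This comparison asks whether the step from day 2 to day 3 differed from the step from day 3 to day 4. A gene can be called in it without lying above or below both days. It called 7713 genes (49.1%), 3408 of them higher (21.7%) and 4305 lower (27.4%), with 1289 (8.2%) and 797 (5.07%) past 1.5-fold. In it, COL1A1 had a log2 difference of -0.74 (adjusted p = 9.75e-12) and FN1 one of -0.93 (adjusted p = 3.79e-12). Of the matrix glycoprotein list, 22 of 28 were lower and 2 higher in that comparison, and of the collagen list 22 of 29 were lower and 2 higher.

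Most genes of smooth muscle contraction rose. Of 25 tested, 19 were higher, 1 lower and 5 not called (median 0.32). ACTG2, the enteric smooth muscle actin also made by myoepithelial cells, had 69.9 and 79.8 CPM at day 2 and 225 and 239.5 CPM at day 3, and rose by 1.64 ± 0.0609 (adjusted p = 1.58e-15). ACTA2, the vascular smooth muscle actin, had 2766 and 2874 CPM at day 2 and 4632 and 4923 CPM at day 3, and rose by 0.76 ± 0.0452. In both actins the lower day 3 value exceeded the higher day 2 value by more than 1.5-fold, though reads of near-identical actin genes may have been split between them. MYH11, the smooth muscle myosin heavy chain, rose by 0.97 ± 0.0607 to 127 ± 10.3 CPM (SD, n = 2), SYNPO2, an actin-bundling protein, by 1.54 ± 0.0757, CALD1 (caldesmon) by 0.36 ± 0.0577 and TPM1 (tropomyosin) by 0.32 ± 0.0404.

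The coactivator that drives many of these genes did not share their direction. MYOCD (myocardin) had 4.85 and 5.29 CPM at day 2 and 1.54 and 1.44 CPM at day 3, and fell by 1.76 ± 0.237 (adjusted p = 1.9e-06). TAGLN, an early smooth muscle marker, was at 1954 and 1978 CPM at day 2 and 2113 and 2079 CPM at day 3. Its values did not overlap, but the difference of 0.09 ± 0.0472 did not pass the test (adjusted p = 0.116). Median levels of the list relative to day 2 were -0.96 at day 1, 0.32 at day 3 and 0.69 at day 4 on the log2 scale, and against the mean of days 2 and 4 only 8 of 25 were higher and 9 lower at day 3.

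The main keratins of both layers rose. KRT14, a basal keratin, had 1626 and 1631 CPM at day 2 and 2628 and 2759.5 CPM at day 3 (0.73 ± 0.048), and its partner KRT5 had 2544 and 2579 CPM at day 2 and 3623 and 3773 CPM at day 3 (0.53 ± 0.0447). KRT6A, a keratin of activated epithelium, rose by 1.00 ± 0.0498, TP63, which maintains basal epithelium, by 0.24 ± 0.058. Reads of KRT5 and KRT6A, and of KRT14 and the keratin 17 gene, may have been split between near-identical sequences, so their separate values are uncertain. The basal list as a whole was divided, with 7 of 16 higher, 6 lower and 3 not called, and COL17A1, the hemidesmosomal collagen of basal cells, fell by 0.55 ± 0.0461. Relative to day 2, the median level of the basal list was 0.41 at day 0 and -0.06 at day 3 on the log2 scale.

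Among simple and luminal epithelial genes, 9 of 24 were higher, 3 lower and 12 not called (median 0.15). The median level of this list relative to day 2 was 0.58 at day 0 and 0.14 at day 3 on the log2 scale. KRT19 had 145 and 136 CPM at day 2 and 228 and 215 CPM at day 3, and rose by 0.66 ± 0.0512. KRT8 rose by 0.42 ± 0.0454, KRT18 by 0.43 ± 0.0579 and CDH1, the epithelial cadherin, by 0.70 ± 0.0666, with no overlap between the days in any of them. Out of 30 genes for desmosomes and other junctions, 15 were higher, 7 lower and 8 not called (median 0.34, or 0.16 leaving out day 3 replicate 1). The median level of the junction list relative to day 2 was 0.40 at day 0 and 0.33 at day 3. DSP (desmoplakin) rose from 202 and 219 CPM to 314 and 341 CPM (0.64 ± 0.0528), and DSG2, a desmosomal cadherin, by 0.41 ± 0.107. GJA1, the gap junction protein connexin 43 shared with fibroblasts, fell by 0.71 ± 0.0544. PRLR, the prolactin receptor, rested on few counts, 5 and 3 at day 2 and 16 and 26 at day 3. Of 2 milk protein genes tested, SPP1 (osteopontin), which many cell types make, fell by 1.53 ± 0.0826.

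**Figure D3:**
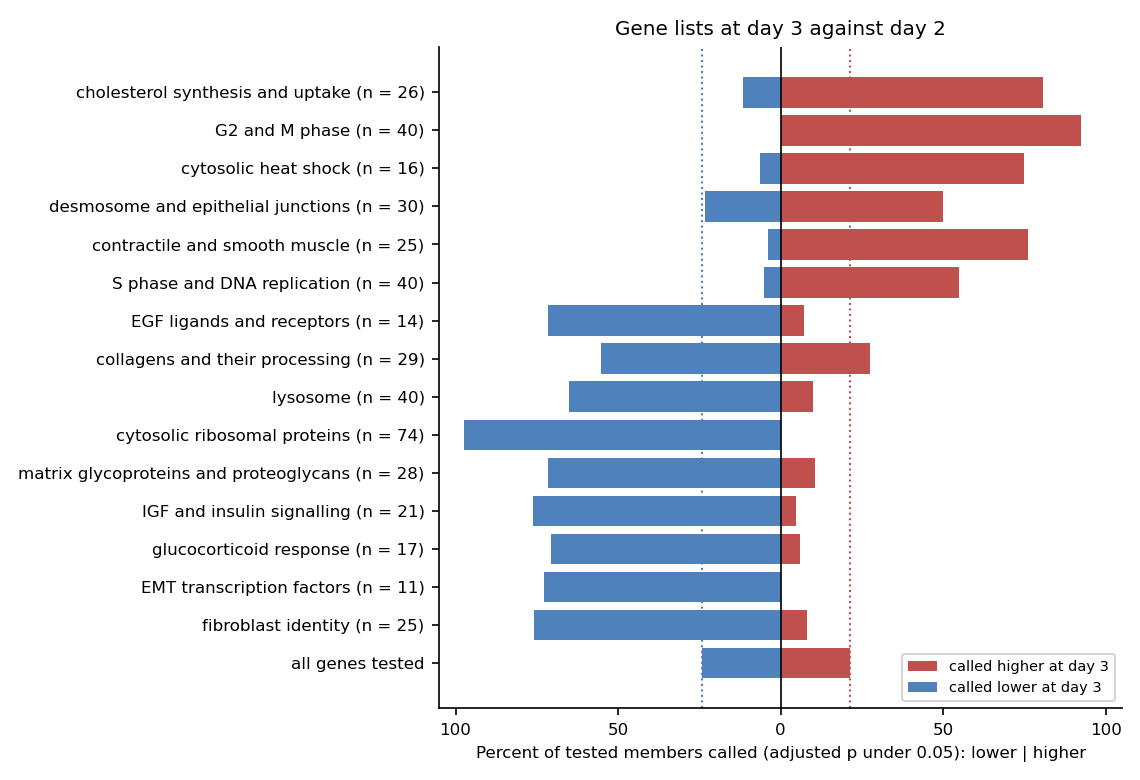
Percent of tested members of 15 gene lists called higher (red, right) or lower (blue, left) at day 3 than at day 2, with the number tested in brackets. The bottom row and the dotted lines give the same percentages over all genes tested, 21.2% higher and 24.1% lower.

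Cholesterol genes rose on the supply side and fell on the export side. Of 26 tested, 21 were higher, 3 lower and 2 not called (median 0.67). HMGCS1, which makes the precursor of the pathway, had 78.5 and 76.3 CPM at day 2 and 182 and 178 CPM at day 3, and rose by 1.22 ± 0.0559 (adjusted p = 4.42e-14). The later enzymes HSD17B7 and TM7SF2 rose by 1.34 ± 0.147 and 1.38 ± 0.0707. The 3 genes that fell act in removal of sterol. ABCG1, a sterol exporter, had 4.37 and 5.74 CPM at day 2 and 0.22 and 0.778 CPM at day 3 (-3.28 ± 0.324). Leaving out day 3 replicate 1 gave -2.69, and leaving out day 3 replicate 2 gave -4.48. ABCA1, the other main exporter, had 23.4 and 21.7 CPM at day 2 and 9.04 and 9.26 CPM at day 3 (-1.30 ± 0.121). NR1H3, the liver X receptor alpha that switches on both exporters, fell by 0.83 ± 0.124. Against the mean of days 2 and 4, 21 of 26 members were higher and 4 lower, with HMGCS1 higher by 0.92 and ABCG1 at -2.63.

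Fatty acid genes had no common direction, since 9 of 20 synthesis genes were higher, 6 lower and 5 not called. SCD, the stearoyl-CoA desaturase, had 7.13 and 8.14 CPM at day 2 and 15.3 and 16.5 CPM at day 3, and rose by 1.06 ± 0.15. ELOVL6, a fatty acid elongase, rose by 0.95 ± 0.0741, and FADS1, a desaturase of polyunsaturated fatty acids, fell by 0.78 ± 0.055. PLIN2, the coat protein of lipid droplets, rose by 0.29 ± 0.05. PPARG, the regulator of fat cell genes, fell by 2.41 ± 0.419 from a low level of 2.52 and 1.70 CPM to 0.441 and 0.350 CPM.

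Mitotic genes rose almost as a block. Of 40 tested, 37 were higher, none lower and 3 not called (median 0.52), and all 40 were higher at day 3 than the mean of days 2 and 4. TTK, a kinase of the spindle checkpoint, had 23.2 and 23.4 CPM at day 2 and 50.6 and 49.1 CPM at day 3, and rose by 1.10 ± 0.0751 (adjusted p = 4.45e-11). TOP2A, the topoisomerase of condensing chromosomes, rose by 0.80 ± 0.0755 and MKI67, the proliferation antigen Ki-67, by 0.50 ± 0.0656. Cyclin B1 (CCNB1) rose by 0.50 ± 0.0605 and ECT2, a regulator of cytokinesis, by 0.98 ± 0.102.

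S phase genes were less uniform, with 22 of 40 higher, 2 lower (1 leaving out day 3 replicate 2) and 16 not called (median 0.27). CCNE2 (cyclin E2) had 13.2 and 12.2 CPM at day 2 and 33.8 and 31.2 CPM at day 3, and rose by 1.35 ± 0.108. POLE2, a subunit of DNA polymerase epsilon, rose by 1.20 ± 0.115 and MCM10, a replication initiation factor, by 0.83 ± 0.065. UNG, which removes uracil from DNA, fell by 0.53 ± 0.0748, and MCM2 of the replicative helicase, at 112 and 113 CPM and then 115 and 117 CPM, did not pass the test (adjusted p = 0.502). Relative to day 2, the median level of the mitotic list was 0.64 at day 1, 0.52 at day 3 and -0.11 at day 4 on the log2 scale. Day 2 and day 4 were thus both low points between higher days.

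Some inhibitors of growth rose as well. Of 27 CDK inhibitors and p53 targets, 12 were higher, 5 lower and 10 not called (median 0.13). CDKN1A, the p21 inhibitor of cyclin-dependent kinases, had 279 and 274 CPM at day 2 and 488 and 495 CPM at day 3, and rose by 0.83 ± 0.0465. MDM2, which marks p53 for destruction and is its target, rose by 0.59 ± 0.0606 and RRM2B, another target, by 0.86 ± 0.0922. CDKN1C, a related inhibitor, fell by 1.10 ± 0.269 from 5.99 and 3.40 CPM to 2.60 and 1.83 CPM, but by 0.63 without day 2 replicate 1, when it no longer passed the test (adjusted p = 0.128).

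**Figure D4:**
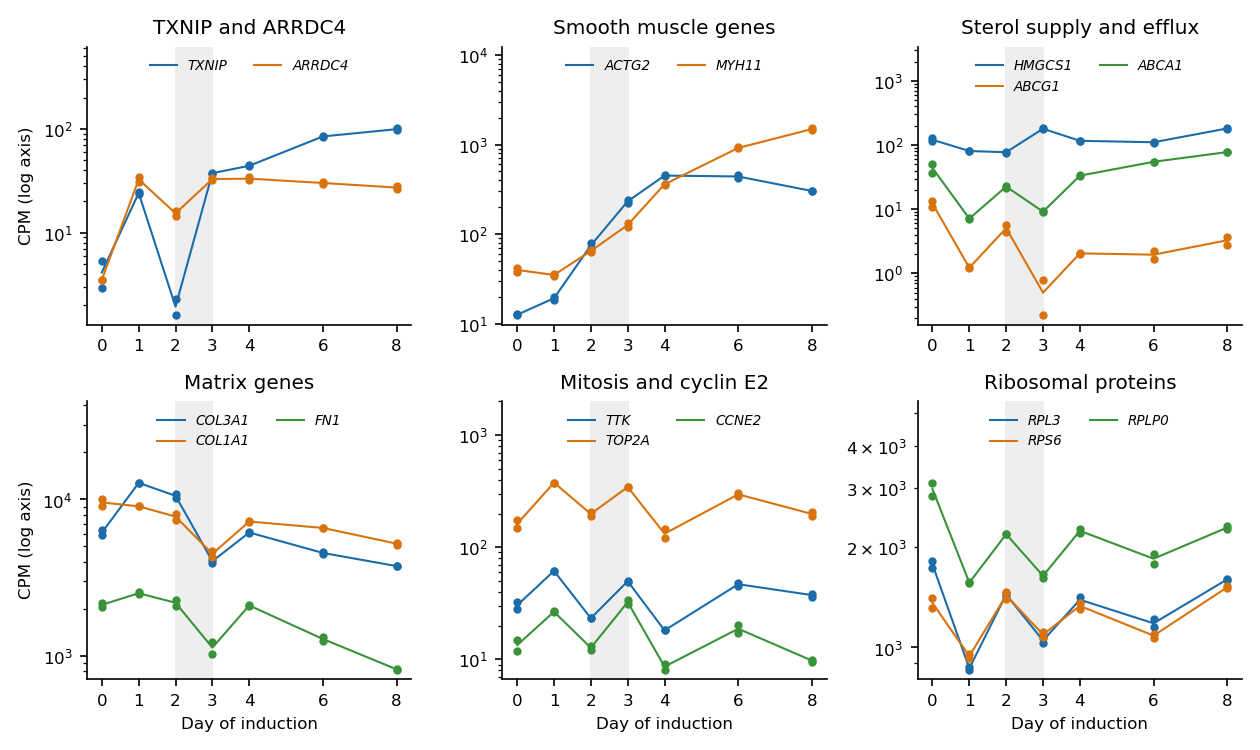
Mean CPM (log axis, lines) and single libraries (points, 2 per day) over days 0 to 8 for 16 genes in 6 panels, with the interval from day 2 to day 3 shaded. TXNIP, the mitotic genes and cyclin E2 dip at day 2 and rise by day 3, smooth muscle genes climb, and the matrix genes, ABCG1, ABCA1 and ribosomal protein genes are lower at day 3 than at both day 2 and day 4.

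The genes of cytosolic ribosomal proteins fell together by a small amount. Of 74 tested, 72 were lower, none higher and 2 not called (median -0.30), and 72 were lower than the mean of days 2 and 4. RPL3 of the large subunit had 1453 and 1426 CPM at day 2 and 1033 and 1065 CPM at day 3, and fell by 0.46 ± 0.0449. RPS6 of the small subunit fell by 0.39 ± 0.0465, RPLP0 by 0.41 ± 0.0471 and RPL13A by 0.53 ± 0.054. EEF1A1, the elongation factor that brings aminoacyl-tRNA to the ribosome, fell by 0.31 ± 0.0389. With an offset for gene length, 64 of the 74 cytosolic ribosomal proteins were lower, with a median of -0.22. Reads of ribosomal protein genes may also fall on their many processed copies in the genome. Genes that build ribosomes did not share the fall, with 14 of 31 higher (9 leaving out day 3 replicate 2), 2 lower and 15 not called. Among them NCL (nucleolin) had 536 and 539.7 CPM at day 2 and 704 and 706 CPM at day 3 and rose by 0.39 ± 0.0439, ODC1, the first enzyme of polyamine synthesis, rose by 0.58 ± 0.0465 and WDR43 by 0.82 ± 0.0769. MYC itself fell by 0.34 ± 0.0545.

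Lysosomal genes were mostly lower, with 26 of 40 lower, 4 higher and 10 not called (median -0.28). CTSD (cathepsin D) had 501 and 516 CPM at day 2 and 365 and 374 CPM at day 3, and fell by 0.46 ± 0.0597. CTSF (cathepsin F) fell by 0.91 ± 0.0706, GPNMB, a lysosomal membrane glycoprotein, by 0.87 ± 0.0547, and SCARB2, a receptor that carries glucocerebrosidase to lysosomes, by 0.70 ± 0.0656. NEU1, the lysosomal sialidase, rose by 0.60 ± 0.0884. FTH1 (ferritin heavy chain) fell by 0.52 ± 0.0567, from 9572 and 9569 CPM to 6447 and 6934 CPM.

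Cytosolic heat shock genes rose in 12 of 16 tested, with 1 lower, 3 not called and a median of 0.44. HSPB8 and CRYAB, small heat shock proteins also abundant in muscle, rose by 1.41 ± 0.149 and 0.97 ± 0.124, CHORDC1, a partner of HSP90, by 0.72 ± 0.103, and HSPH1 by 0.42 ± 0.0601. DNAJB1, a sensitive target of the heat shock response, stood at 57.1 and 56.7 CPM at day 2 and 59.4 and 61.6 CPM at day 3 and did not pass the test (adjusted p = 0.249). In the endoplasmic reticulum, 12 of 24 folding genes were higher, 5 lower and 7 not called, and HSPA5, the chaperone BiP, rose by 0.59 ± 0.0475.

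Among growth factor pathways, ligands and receptors of the EGF family were lower in 10 of 14 tested, with 1 higher and 3 not called (median -0.21). None was called higher leaving out either replicate 1 of the 2 days. The ligand AREG (amphiregulin), which drives duct growth in the mammary gland of mice, had 60.9 and 57.6 CPM at day 2 and 30.2 and 29.6 CPM at day 3, and fell by 0.99 ± 0.0802. TGFA, another ligand, fell by 0.63 ± 0.0545, the receptor EGFR by 0.32 ± 0.0632 and DUSP4, an inducible ERK phosphatase, by 1.06 ± 0.0979.

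IGF and insulin signalling genes were lower in 16 of 21, with 1 higher and 4 not called (median -0.43). IGFBP3, a binding protein that holds IGF, had 599 and 610 CPM at day 2 and 302 and 301 CPM at day 3, and fell by 1.00 ± 0.043. IRS1, the adaptor beneath the insulin and IGF receptors, fell by 1.04 ± 0.0697. PIK3R3, a regulatory subunit of PI3 kinase, rose by 0.42 ± 0.111, but did not pass without day 2 replicate 2 (0.35, adjusted p = 0.0518). Relative to the mean of days 2 and 4, 18 of the 21 genes were lower at day 3 and none higher.

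Of 17 genes known to respond to glucocorticoids, 12 were lower, 1 higher and 4 not called (median -0.45). SGK1, a kinase that controls ion transport, had 269 and 266 CPM at day 2 and 125 and 119 CPM at day 3, and fell by 1.13 ± 0.0497. CEBPD, a transcription factor of the involuting mouse mammary gland, fell by 1.04 ± 0.126 and KLF15 by 1.10 ± 0.23. FKBP5, among the most direct targets of the receptor, was at 93.5 and 91.6 CPM and then at 87.2 and 83.2 CPM, and did not pass the test (adjusted p = 0.1).

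TGF-beta pathway genes were more often lower than higher. The ligand genes TGFB3 and INHBA (the activin A subunit) rose by 1.11 ± 0.0616 and 1.25 ± 0.117. FST (follistatin), which binds activin, had 280.0 and 277 CPM at day 2 and 122 and 124 CPM at day 3, and fell by 1.18 ± 0.049. Of the target genes, SMAD7 and PMEPA1, feedback inhibitors, fell by 0.78 ± 0.159 and 1.02 ± 0.114. Over the list, 12 of 23 were lower, 4 higher and 7 not called (median -0.21). BMP genes had no common direction, with 9 of 26 higher and 10 lower. Their targets ID1 and ID3 rose by 0.79 ± 0.104 and 0.80 ± 0.0609, and the receptor BMPR1B by 1.20 ± 0.145.

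Single feedback genes and receptors of other pathways fell. AXIN2, the WNT feedback gene, had 13.7 and 17.1 CPM at day 2 and 4.41 and 5.83 CPM at day 3, and fell by 1.58 ± 0.134, while 9 of 29 WNT genes were lower, 5 higher (3 leaving out day 2 replicate 1) and 15 not called. HEYL, a Notch target, fell by 3.09 ± 0.377 from 3.14 and 3.95 CPM to 0.22 and 0.583 CPM (-3.97 without day 3 replicate 2), with 6 of 16 Notch genes lower and 4 higher, or 2 higher leaving out any 1 of the 4 libraries. AHR, the receptor for dioxin-like ligands, had 106 and 109.6 CPM at day 2 and 31.4 and 32.5 CPM at day 3, and fell by 1.75 ± 0.0726. Immediate early genes were lower in 12 of 27, higher in 3 and not called in 12, with EGR1, EGR2 and NR4A2 lower by 0.91 ± 0.111, 1.66 ± 0.216 and 1.14 ± 0.0602 (log2 -0.91, -1.66 and -1.14).

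Interferon genes had 8 of 24 higher, 3 lower and 13 not called. EIF2AK2, the double-stranded RNA kinase PKR, had 26.6 and 25.1 CPM at day 2 and 67.8 and 72.8 CPM at day 3, and rose by 1.44 ± 0.145, and DDX58, the RNA sensor RIG-I, rose by 1.38 ± 0.141. RSAD2 (viperin), an antiviral enzyme, rose by 3.52 ± 0.602, but on few counts, 3 and 1 at day 2 and 25 and 32 at day 3, and by 4.41 without day 2 replicate 1. Complement genes and serpins were lower in 6 of 10 tested, higher in 2 and not called in 2 (median -0.61), with 1 higher leaving out replicate 2 of either day. C1R and C1S, proteases that start the classical pathway, fell by 1.06 ± 0.0569 and 0.90 ± 0.0539. C3, the central complement protein, fell by 1.04 ± 0.0527 and CFB, factor B, by 1.10 ± 0.125, while SERPINB5 (maspin), made by myoepithelial cells, rose from 51.1 and 48.4 CPM to 78.9 and 78.5 CPM (0.66 ± 0.0598). Cytokine and NF-kB genes had 14 of 31 lower (9 leaving out replicate 1 of either day), 7 higher and 10 not called, with IL1A and IL18 higher by 0.84 ± 0.126 and 0.70 ± 0.103 and the cytokine inhibitor SOCS2 at -0.74 ± 0.0606.

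Most lists of stress and energy genes had more members lower than higher. The amino acid and integrated stress response list had 17 of 34 lower, 7 higher and 10 not called. ATF4, its central transcription factor, had 543 and 532 CPM at day 2 and 409 and 421 CPM at day 3 and fell by 0.37 ± 0.0524, and its target ASNS (asparagine synthetase) fell by 0.39 ± 0.0536, whereas GDF15 rose by 0.83 ± 0.11 and SLC7A11, a cystine importer, by 0.69 ± 0.103. Hypoxia and glycolysis genes had 14 of 31 lower and 6 higher (2 or 3 higher leaving out any 1 of the 4 libraries), and HIF1A fell from 810.4 and 796 CPM to 518 and 520.4 CPM (-0.63 ± 0.0518). Oxidative stress genes had 10 of 22 lower and 4 higher, oxidative phosphorylation genes 12 of 32 lower and 3 higher, and proteasome genes 7 of 36 lower and 11 higher. Leaving out day 2 replicate 1 gave 5 oxidative phosphorylation genes lower, and leaving out day 2 replicate 2 or day 3 replicate 1 gave 6. Proteasome genes lower came to 3 leaving out day 3 replicate 1 and to 4 leaving out any other of the 4 libraries, and those higher to 6 leaving out day 3 replicate 1 and 7 leaving out day 2 replicate 2. PPARGC1A, a coactivator of mitochondrial genes, rose by 1.14 ± 0.228 at a low level. PPAR targets and fatty acid oxidation genes had 9 of 20 lower and 3 higher, with PPARA at -0.64 ± 0.0747 and FABP5, a fatty acid carrier, at 0.74 ± 0.0658.

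Adhesion receptors were divided, with 10 of 21 lower and 8 higher. ITGB8, an integrin subunit that activates latent TGF-beta, had 208 and 222 CPM at day 2 and 384 and 402 CPM at day 3 and rose by 0.87 ± 0.0784. ITGA1, a collagen receptor subunit, rose by 0.50 ± 0.0673 and DDR1, the epithelial collagen receptor, by 0.57 ± 0.0714, while ITGA11, a collagen receptor subunit of fibroblasts, fell by 1.55 ± 0.204. Of 16 aquaporins and ion transporters, 6 were higher and 3 lower (1 leaving out day 3 replicate 2), with CFTR, a chloride channel, higher by 1.29 ± 0.203 at 5.11 and 5.64 CPM, CLCA2 higher by 1.04 ± 0.068 and CA12, a carbonic anhydrase, at -0.63 ± 0.0463. ERK feedback genes had 7 of 16 lower and 3 higher, with SPRY2 at -0.92 ± 0.113 and PHLDA1 at -0.91 ± 0.0541. SRF and YAP targets had 7 of 20 higher and 6 lower (3 leaving out day 3 replicate 1), with ANKRD1, a YAP target, at 1.92 ± 0.282 and SRF itself at -0.34 ± 0.0516.

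Chromatin genes had 7 of 21 higher and 6 lower, with HMGA2 and HMGA1, architectural proteins of growing mesenchymal cells, at -1.0 ± 0.0772 and -0.60 ± 0.0667 and HDAC9 at 1.39 ± 0.179. Circadian clock genes had 4 of 18 higher (2 leaving out day 2 replicate 1) and 3 lower, with NFIL3 at -1.01 ± 0.0736. Milk fat and lipid droplet genes had 9 of 23 higher and 2 lower, stratified epidermis genes 3 of 19 higher and 5 lower (2 leaving out day 2 replicate 1 and 3 leaving out day 3 replicate 1), and retinoid, steroid and xenobiotic genes 1 of 18 higher and 6 lower. Of marker lists for other cell types, 3 of 5 cartilage genes were higher (1 leaving out day 2 replicate 1) and none lower, 1 of 5 skeletal muscle genes higher, and of adipocyte genes 1 of 6 higher and 1 lower. None was higher among 6 endothelial, 2 leukocyte, 3 Schwann or neural and 2 melanocyte genes tested, where 2, 1, 1 and 1 were lower. Leaving out 1 library moved the retinoid count of higher genes and these small marker counts, cartilage apart, by at most 1. The 1 pluripotency gene tested was not called.

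In the comparison with the mean of days 2 and 4, the genes named again exclude LOC and assembled-transcript identifiers. They were the greatest among those whose day 3 values lay all above or all below the values of both other days. TXNIP, higher by 2.01 in that comparison, was not among them because its day 4 values exceeded those of day 3. PHACTR2 was higher by 1.84 in it, KIAA1841 by 1.80, DEPDC1, a mitotic regulator, by 1.66, and SPC25, a kinetochore protein, by 1.65. CCNE2 was higher by 1.63, LRRC58 by 1.56, EIF2AK2 by 1.45 and USP45, a deubiquitinase, by 1.43. CCNE2 means were 12.7 CPM at day 2, 32.5 CPM at day 3 and 8.63 CPM at day 4, so that day 3 stood above both neighbours. In the other direction, CACNA1C, the L-type calcium channel of muscle, had log2 -2.78, ABCG1 -2.63, SNED1 -2.59 and MGP (matrix Gla protein) -2.45. MGP means were 8.26 CPM at day 2, 2.82 CPM at day 3 and 28.4 CPM at day 4. CACNA1C means were 4.14 CPM, 0.686 CPM and 5.37 CPM on the same days.

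The change also depended on gene length. When the genes tested were cut into 5 equal groups by length, the percent called higher rose from 10.8% of the shortest to 32.5% of the longest, and the percent called lower went from 27.4% to 21.7%. Median log2 fold changes ran from -0.11 to 0.08 over the same groups. The median length was 3445 bases for genes called higher, 2572 for genes called lower and 2688 for all genes. Across 15712 genes, which are not independent replicates, the rank correlation of length with the log2 fold change was 0.128 here. It was -0.148 for day 2 over day 1 and -0.110 for day 4 over day 3, steps that share libraries with this one. With an offset for gene length, which was chosen after the data were seen, 37 of 40 mitotic, 20 of 26 cholesterol and 18 of 25 contractile genes were called higher and 20 of 25 fibroblast genes lower. What lies behind the relation with length was not tested.

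**Figure D5:**
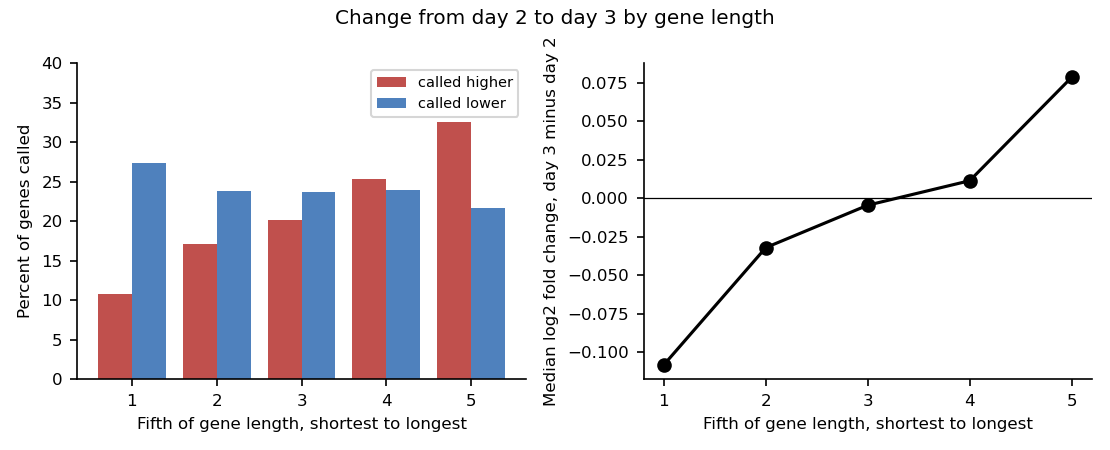
Percent of genes called higher (red) and lower (blue) at day 3 (left, bars from 0) and the median log2 fold change (right) in 5 equal groups of the genes tested, from the shortest to the longest. The red bars climb from 10.8% to 32.5% and the median goes from -0.11 to 0.08.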

How the data were processed

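RNA was measured in 14 libraries, 2 per day; per the labels' protocols, Ribo-Zero Gold depleted ribosomal RNA and a TruSeq kit was used for the libraries. The authors deposited 1 estimated count per gene and library, and 90.0% of these values are whole numbers. The submitters' processing notes list, with no order, the tools HTSeq, DESeq2 1.16.1 and FastQC 0.10.1. Aligner, genome build, strand setting and the step that gave fractions: not given in the sources used here. Reads of near-identical genes may therefore have been split, and overlapping or antisense genes cannot be told apart. Coordinates are not given for that reason.

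The table holds 30277 genes; 25219 had a symbol in it and 3687 more got one from RefSeq (ARS1.2) by gene identifier. Of rows sharing a symbol, the one with most counts was used, and 1 line without values was left out. Estimated counts were rounded and fitted in R 4.3.3 by edgeR 4.0.16 with limma 3.58.1, using TMM scaling, filterByExpr over 7 days, 1 coefficient per day over all 14 libraries, 2-sided quasi-likelihood F tests and Benjamini-Hochberg adjustment over 15712 genes. Residual degrees of freedom were 7 and the common biological coefficient of variation 0.0455. CPM use TMM-scaled library sizes. The SE is the absolute log2 fold change over the square root of F and understates the error of large changes at few counts.

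Library totals ran from 20515126 to 24746010. Libraries of a day differed by more than sampling noise, as chi-square divided by its degrees of freedom was 2.78 at day 2 and 4.35 at day 3 (genes with 20 or more counts), so none was treated as a copy. Floors cover counting error only. The fit was also run on simulated data in which few genes changed, at day 3 only, with a common spread for all genes. That setting differs from these data, where 45.3% of genes were called, so the run cannot vouch for the calls here.

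The comparison, the 55 gene lists, the markers and the naming rule were chosen with earlier results of these data known. Rankings by size of change took only called genes with a symbol, and left out LOC and assembled-transcript identifiers. Named were the 15 greatest rises and falls at 5 CPM or more with no overlap between the days, the 8 largest gains and losses of CPM, up to 3 called members of each list in each direction, the first 3 members of each list, and the 8 greatest in each direction against the mean of days 2 and 4 among genes at 5 CPM or more on 1 of the 3 days whose day 3 values lay beyond all values of both other days; the text names fewer, and 3 genes are not reported here. Alternatives were other scaling (RLE), no filter and a strict filter, a replicate block, days 2 and 3 alone, each library left out, DESeq2 1.42.0, and a gene length offset added after the data were seen.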

Additional observations from a re-analysis of the deposited data

How the results depend on the processing

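The count of genes called between day 2 and day 3 was 7116 and stood at 7053 with RLE scaling, 7163 without a filter, 6631 with a filter of 5 CPM in 2 libraries, 7276 with days 2 and 3 alone, 6079 with DESeq2 and 7335 with the length offset. Leaving out 1 library at a time gave 5511 to 7581, the lowest without day 2 replicate 1. With the replicate number as a block it was 6939, and 7529 against 7713 for day 3 over the mean of days 2 and 4. Deviations of same-numbered libraries correlated at 0.0699 between days 2 and 3, the highest of 21 pairs of days (lowest -0.141). With 2 libraries per day, these correlations cannot tell whether same-numbered libraries shared a culture or a batch. The strict filter kept only genes at 5 CPM or more in at least 2 libraries. It left 222 genes past 2-fold higher, against 472, and 217 lower, against 401. In each of the 15 gene lists plotted, the count in its more frequent direction stayed within 1.5 times under the alternatives run, while some smaller counts in the opposite direction moved further; leaving out 1 library gave 63 to 74 ribosomal protein genes lower and 15 to 20 contractile genes higher. Between 43.7% and 49.1% of called genes were higher in every setting. The median over the genes shared with the main fit moved by at most 0.018, with the length offset.

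Of 188 named genes checked, ZEB1, not called, ran from -0.12 without day 2 replicate 2 to a reversed 0.057 (adjusted p = 0.768) without day 2 replicate 1 and to 0.0033 (0.991) without day 3 replicate 1. TAGLN was called in 5 settings (edgeR adjusted p 0.00282 to 0.0478), among them days 2 and 3 alone and the length offset, which also called FKBP5 (-0.18, 0.00904). PIK3R3 and CDKN1C were the only called genes among them to lose the call, each without 1 library. Genes with few counts, such as RSAD2, PRLR and HEYL, are limited by depth.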

Other observations

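A small group of neighbouring genes split in direction. LOC102176915, annotated in RefSeq as secreted and transmembrane protein 1-like, had a log2 fold change of -3.36 from day 2 to day 3, from a mean of 7.28 CPM to 0.713 CPM. Its neighbour LOC108638312, with no protein-coding gene between them in assembly ARS1.2, had 1.82, from 2.80 CPM to 9.91 CPM, and the next gene, CD7, rose by 2.02 ± 0.173. These genes were chosen after their values were seen, their sequences may share reads, and the part of shared reads was not tested.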
